A study of Homo sapiens with 72 samples.

Results

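The integrin and laminin genes were taken from poly(A) RNA-seq of TUT4/7 double mutants of a prostate and an ovarian cancer cell line. A gene was a member if its symbol in the count files was that of an integrin alpha chain (ITGA), an integrin beta chain 1 to 8 (ITGB) or a laminin alpha, beta or gamma chain (LAMA, LAMB, LAMC). The rule found 38 of the 26485 genes counted, 26 of them integrins (18 alpha and 8 beta chains) and 12 of them laminins. Of these, 34 passed the low-count filter that left 15556 genes for testing; ITGA8, ITGAD, ITGB6 and LAMA4 did not. Of the members with a mean of at least 10 CPM (counts per 1000000 reads assigned to genes) in 1 or more groups and a called log2 fold change of at least 1 in 1 or more comparisons, 20 are described one by one; the 17 that did not meet this rule are given by their ranges.

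The 36 libraries formed 9 groups of 4. Wild-type IGROV1 (ovarian cancer, LIN28A-positive), wild-type DU145 (prostate cancer, LIN28A-negative) and wild-type LIN28A-OE DU145 were each set beside 2 mutant clones (genotype TUT4-; TUT7-). All mutants carried CRISPR edits upstream of the exon that codes for the catalytic domain of each enzyme. LIN28A-OE DU145 cells carried an integrated lentiviral LIN28A cDNA behind a CMV promoter, without introns or 3′ UTR. The labels give the mutants of LIN28A-OE DU145 the clone names used in DU145, so they were taken to be the same clones and not new ones. In both IGROV1 clones and in clone 2 of DU145 the clone name ends in a different number in each replicate, and the labels do not say whether these are subclones. The 4 libraries of a group are consecutive passages, from 2 to 12 in the mutants of IGROV1 and DU145, 6 to 9 in wild-type IGROV1, far later ones in wild-type DU145 and 1 to 4 in every LIN28A-OE group. A p-value therefore rests on the spread between passages within a line or clone, estimated over all 9 groups together. It measures neither the spread of the compared groups alone nor that between independent clones. The genotype cannot be told apart from the clone or its passage. DU145 was grown in EMEM and IGROV1 in RPMI medium.

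Integrins are heterodimers of an alpha and a beta chain that bind the matrix outside the cell and the cytoskeleton inside it, and the alpha chain largely sets what is bound. Laminins are trimers of an alpha, a beta and a gamma chain and are a main component of basement membranes. Laminin-332, which holds the chains LAMA3 and LAMB3, is the laminin of epithelial anchoring, and its receptors are α3β1 (ITGA3 and ITGB1) and α6β4 (ITGA6 and ITGB4), the latter being the core of hemidesmosomes. Laminin-511 and laminin-521 combine LAMA5 with LAMB1 or LAMB2 and LAMC1, and laminin-111 combines LAMA1 with LAMB1 and LAMC1. ITGA1, ITGA2 and ITGA11 pair with ITGB1 as collagen receptors, ITGAV pairs with several beta chains and binds RGD-containing ligands, and ITGB2 is the beta chain of the leukocyte integrins.

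The libraries held 7195437 to 25054688 reads assigned to genes. The enzymes targeted check the labels. Mean TUT4 was 78.0 CPM in wild-type IGROV1 against 26.6 and 27.1 in its clones, and 56.7 CPM in wild-type DU145 against 12 in clone 1 and 41.7 in clone 2. Mean TUT7 was 33.8 CPM in wild-type IGROV1 against 17.9 and 12.6, and 43.2 CPM in wild-type DU145 against 14.2 and 23.9. The same clones in LIN28A-OE DU145 had 19.8 and 60.9 CPM of TUT4 and 23.2 and 36.1 of TUT7, against 66.1 and 62.1 in their wild type. Clone 2 of DU145 was thus little below its wild type in TUT4, and small edits need not lower a gene's count. Mean LIN28A was below 0.15 CPM in every DU145 group and 69.6 CPM in wild-type LIN28A-OE DU145, against 379 and 262 CPM in its clones 1 and 2, so the level of the transgene differed between the groups compared, and its part in the LIN28A-OE results was not tested. Of the prostate markers, KLK3 and HOXB13 had means below 0.06 CPM in all DU145 groups. The 3 ovarian markers, mainly PAX8, were at a summed 578 to 689 CPM in wild-type IGROV1, while of these MUC16 was higher in wild-type DU145 (mean 23.1 CPM) than in wild-type IGROV1 (2.11) and had a mean of 145 CPM in LIN28A-OE clone 2. The leukocyte markers, PTPRC among them, summed to less than 6 CPM in every library.

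In 6 libraries the genes deviated from the other replicates of their group by a median of more than 0.2 log2 units: replicate 4 of both IGROV1 clones and of both DU145 clones, and replicate 1 of wild-type DU145 and of wild-type LIN28A-OE DU145. Transcripts of 5432 bases or more were lower there than transcripts of up to 2147 bases, by 0.26 to 0.83 on the log2 scale, and 21 of the 38 members belong to the long class. Every fit was repeated without these 6 libraries. No call of a described member was lost, and 32 values that had missed the threshold were then called. The 6 were picked for deviating from their own replicates, so leaving them out narrows the spread within groups. Calls over all genes rose in every comparison, in LIN28A-OE clone 1 from 1760 higher and 2160 lower to 3178 and 3382. The kept and gained calls therefore do not show that a result is stable. The part that library quality has in the other differences was not tested.

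**Figure D1:**
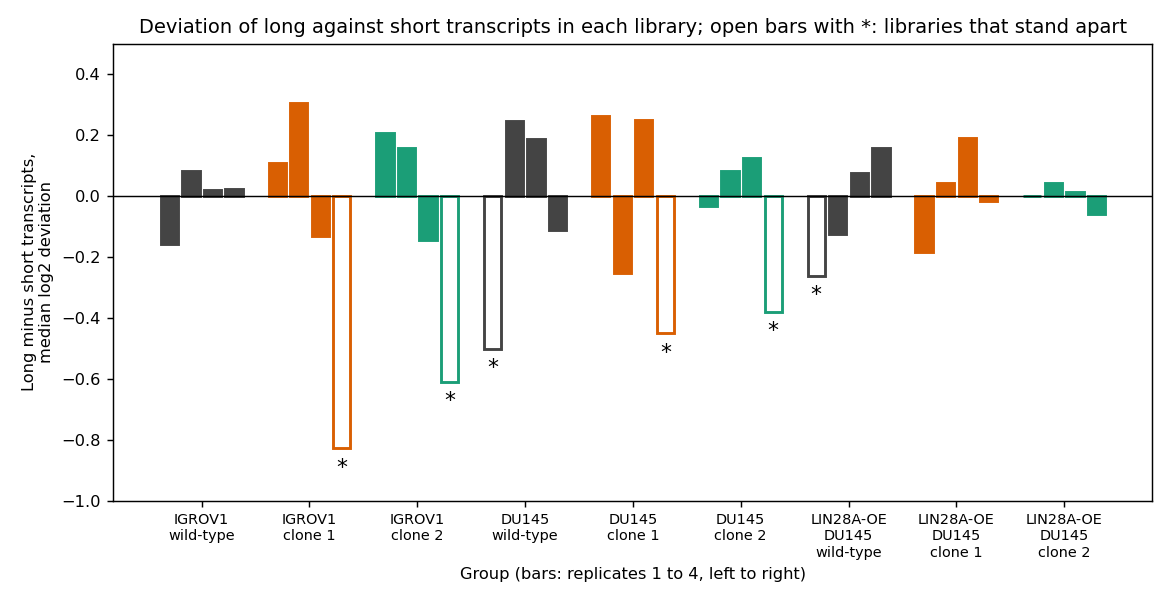
Median log2 deviation of long transcripts (5432 bases or more) from the other replicates of the group minus that of short ones (2147 bases or less), y axis, for the 36 libraries, x axis, grouped as labelled. The 6 open bars marked with a star are the libraries that stand apart; the lowest is replicate 4 of IGROV1 clone 1 at -0.829.

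A promoter was found in RefSeq (GRCh38.p14) for 26 of the 38 members. Those of LAMA3, LAMB3, ITGA6 and ITGA2 are shown, picked by hand from the genes that fell in both IGROV1 clones. ITGB5 and LAMC1 fell in both as well and are not shown. Their windows held 2 and 3 GC boxes and neither of the other motifs searched. ITGB4 and ITGA3, which also fell in both clones, had no entry. Each line gives the 250 bases before the gene's start, read 5′ to 3′ on the gene's strand, at chr18:23872770-23873019 (plus strand), chr1:209652426-209652675 (minus), chr2:172427086-172427335 (plus) and chr5:52989102-52989351 (plus). Capitals mark 3 motifs searched on both strands, the AP-1 site TGANTCA, the E-box CACCTG and the GC box GGGCGG.
LAMA3: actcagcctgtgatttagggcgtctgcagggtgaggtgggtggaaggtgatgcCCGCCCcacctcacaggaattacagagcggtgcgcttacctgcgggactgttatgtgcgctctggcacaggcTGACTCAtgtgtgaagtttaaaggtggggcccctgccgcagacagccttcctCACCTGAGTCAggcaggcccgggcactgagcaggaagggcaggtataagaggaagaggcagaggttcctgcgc
LAMB3: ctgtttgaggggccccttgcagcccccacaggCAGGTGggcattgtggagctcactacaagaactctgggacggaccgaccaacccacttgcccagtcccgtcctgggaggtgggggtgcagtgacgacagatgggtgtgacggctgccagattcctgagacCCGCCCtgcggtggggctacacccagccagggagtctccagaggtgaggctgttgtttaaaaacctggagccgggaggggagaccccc
ITGA6: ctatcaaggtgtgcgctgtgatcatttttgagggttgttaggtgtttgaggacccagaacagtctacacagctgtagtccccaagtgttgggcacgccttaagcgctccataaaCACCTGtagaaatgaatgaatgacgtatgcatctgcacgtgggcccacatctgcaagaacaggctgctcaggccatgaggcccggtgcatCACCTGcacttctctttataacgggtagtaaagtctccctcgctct
ITGA2: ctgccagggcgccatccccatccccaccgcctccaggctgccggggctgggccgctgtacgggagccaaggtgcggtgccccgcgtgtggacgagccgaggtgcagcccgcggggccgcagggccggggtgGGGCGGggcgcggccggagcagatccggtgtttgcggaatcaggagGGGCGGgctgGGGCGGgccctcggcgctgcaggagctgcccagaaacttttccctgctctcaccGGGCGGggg

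LAMA3 was the only member of the 26 with an AP-1 motif in this window, and it had 2, beginning 125 and 69 bases before the start; the second overlaps the E-box that begins 73 bases before the start. The motif is in 6.6% of all 27305 promoters of this length. LAMA3 also held a GC box at 197 bases, LAMB3 held an E-box at 218 and a GC box at 88 bases, ITGA6 held 2 E-boxes at 136 and 46 bases, and ITGA2 held 4 GC boxes and neither other motif. The E-box was in 7 of the 26 members and in 17.5% of all promoters, and the GC box in 13 of the 26 and in 42.3%. None of the 3 motifs was present in all 4 windows shown, which were picked by hand. The LAMA3 sequence starts inside the gene's full extent (chr18:23689453-23956222, GENCODE v44), whose longer transcript begins upstream, and the counts do not separate the transcripts.

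More members fell than rose in IGROV1. With a false discovery rate (FDR) below 0.01, 5 of the 34 members tested were higher and 14 lower in IGROV1 clone 1, where 14.5% of all genes tested were higher and 16.6% lower. In clone 2, 7 were higher and 11 lower, against 14.2% and 15.9% of all genes. The median log2 fold change of the 34 members was -0.23 in clone 1 and -0.27 in clone 2, beside 0 and 0.01 over all genes. In DU145 6 members were higher and 4 lower in clone 1 (all genes, 10.4% and 11.3%), and 7 were higher and 0 lower in clone 2 (all genes, 9.99% and 10.5%). That count of 0 comes from edgeR. At an unadjusted p under 0.05, 5 members were lower, DESeq2 called 2, and 3 were called without the 6 libraries. Over all genes, 1638 were lower in the edgeR fit, 1793 with DESeq2 and 2267 without the 6 libraries. In LIN28A-OE DU145 6 were higher and 8 lower in clone 1 (all genes, 11.3% and 13.9%), and 3 were higher and 3 lower in clone 2 (all genes, 10.5% and 10.1%). Without the 6 libraries the last pair of counts became 5 and 10, while the counts over all genes went from 1635 and 1569 to 2386 and 2504. The 6 higher in clone 1 became 3 when only the compared groups were fitted, and over all genes 1760 became 1134.

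**Figure D2:**
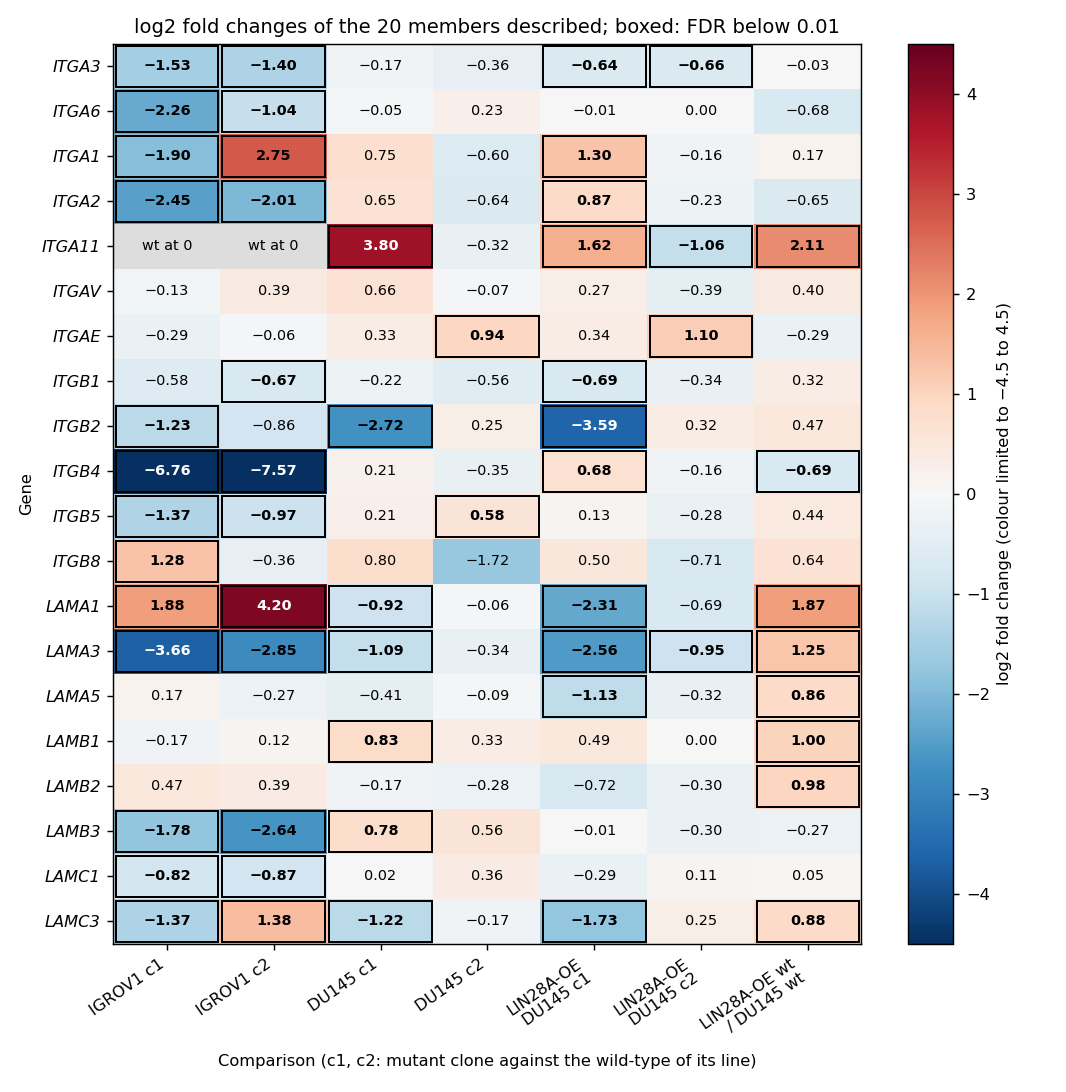
log2 fold changes (colour and number) of the 20 described members, y axis, in 7 comparisons, x axis; boxed values have an FDR below 0.01 (edgeR). ITGA11 is left without a value in IGROV1, where the wild type is at 0. ITGB4 and LAMA3 carry the deepest blue in the IGROV1 columns, with values from -7.57 to -2.85.

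The laminin-332 receptor chain ITGB4 (chr17:75721328-75757818 on hg38, as for all gene positions here, from GENCODE v44), the signalling partner of ITGA6 in hemidesmosomes, was nearly absent from both IGROV1 clones. It had 62.6, 57.5, 50.9 and 47 CPM in the wild-type libraries, 0.400, 0.212, 0.516 and 1.16 in clone 1 and 0.504, 0.279, 0.0753 and 0.198 in clone 2. The lowest wild-type library lay above every mutant library by a wide margin. The log2 fold changes were -6.76 ± 0.23, FDR = 8.26e-22 and -7.57 ± 0.24, FDR = 5.49e-23. In bulk RNA, fewer cells that express a gene cannot be told apart from less of its RNA per cell. In DU145, ITGB4 had 134, 136, 124 and 136 CPM in the wild type, 184, 138, 157.9 and 134 in clone 1 and 118, 94.9, 118 and 120.0 in clone 2. The wild type overlapped clone 1 and lay just above clone 2, and edgeR called neither clone (0.21 ± 0.15, FDR = 0.301 and -0.35 ± 0.15, FDR = 0.071), while DESeq2 called clone 2 lower (-0.35, FDR = 0.00473).

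ITGA6 (chr2:172427354-172506459), the alpha chain of α6β4 and α6β1, fell less far. Wild-type IGROV1 had 76.9, 78.2, 85.7 and 79.6 CPM, clone 1 19.1, 21.9, 14.8 and 8.15 and clone 2 44.9, 55.8, 39.5 and 19.4. No mutant library reached the wild-type range, and the clones overlapped each other only through replicate 4 of clone 2. The log2 fold changes were -2.26 ± 0.21, FDR = 1.36e-10 in clone 1 and -1.04 ± 0.20, FDR = 8.62e-05 in clone 2, and the clones themselves differed (1.22 ± 0.21, FDR = 2.56e-05), a call lost when only the 2 clones were fitted (FDR = 0.0284). ITGA3 (chr17:50055968-50090481), the alpha chain of α3β1, had 117, 92.8, 95.5 and 96.2 CPM in wild-type IGROV1, 35, 29, 26.6 and 42.3 in clone 1 and 30.6, 34.1, 41.2 and 48 in clone 2. Both clones lay below the wild type without overlap, with log2 fold changes of -1.53 ± 0.14, FDR = 1.39e-10 and -1.40 ± 0.14, FDR = 8.11e-10. Their common partner ITGB1 moved less: 585, 580.0, 588 and 596 CPM in wild-type IGROV1, 450.0, 487, 413 and 173 in clone 1 and 422, 443, 407 and 235 in clone 2, with replicate 4 lowest in both clones. The log2 fold changes were -0.58 ± 0.19, FDR = 0.013 and -0.67 ± 0.19, FDR = 0.00454, and without the 6 libraries -0.35, FDR = 0.000197 and -0.52, FDR = 8.95e-07. The call in clone 2 was lost without wild-type replicate 4 or clone 2 replicate 4 alone (log2 fold changes -0.66 to -0.52, FDR = 0.0112 to 0.0295).

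LAMA3 and LAMB3, chains of laminin-332, fell in both IGROV1 clones. LAMA3, the alpha chain that carries the integrin-binding domain, had 37.3, 55.8, 46.2 and 43.9 CPM in wild-type IGROV1, 3.71, 4.55, 3.61 and 1.55 in clone 1 and 6.51, 5.91, 7.38 and 6.05 in clone 2. The lowest wild-type library was several times the highest mutant library. LAMB3 (chr1:209614870-209652425), the beta chain, was already low in the wild type, at 5.54, 6.22, 9.31 and 10.0 CPM, and had 1.14, 1.69, 2.58 and 4.14 in clone 1 and 1.01, 0.718, 1.05 and 2.44 in clone 2. Both clones were below the wild type without overlap but overlapped each other, and replicate 4 was the highest library of each. In clone 1 and clone 2 respectively, the log2 fold changes were -3.66 ± 0.32, FDR = 2.84e-11 and -2.85 ± 0.30, FDR = 1.28e-09 for LAMA3. They were -1.78 ± 0.31, FDR = 1.47e-05 and -2.64 ± 0.31, FDR = 1.65e-08 for LAMB3.

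**Figure D3:**
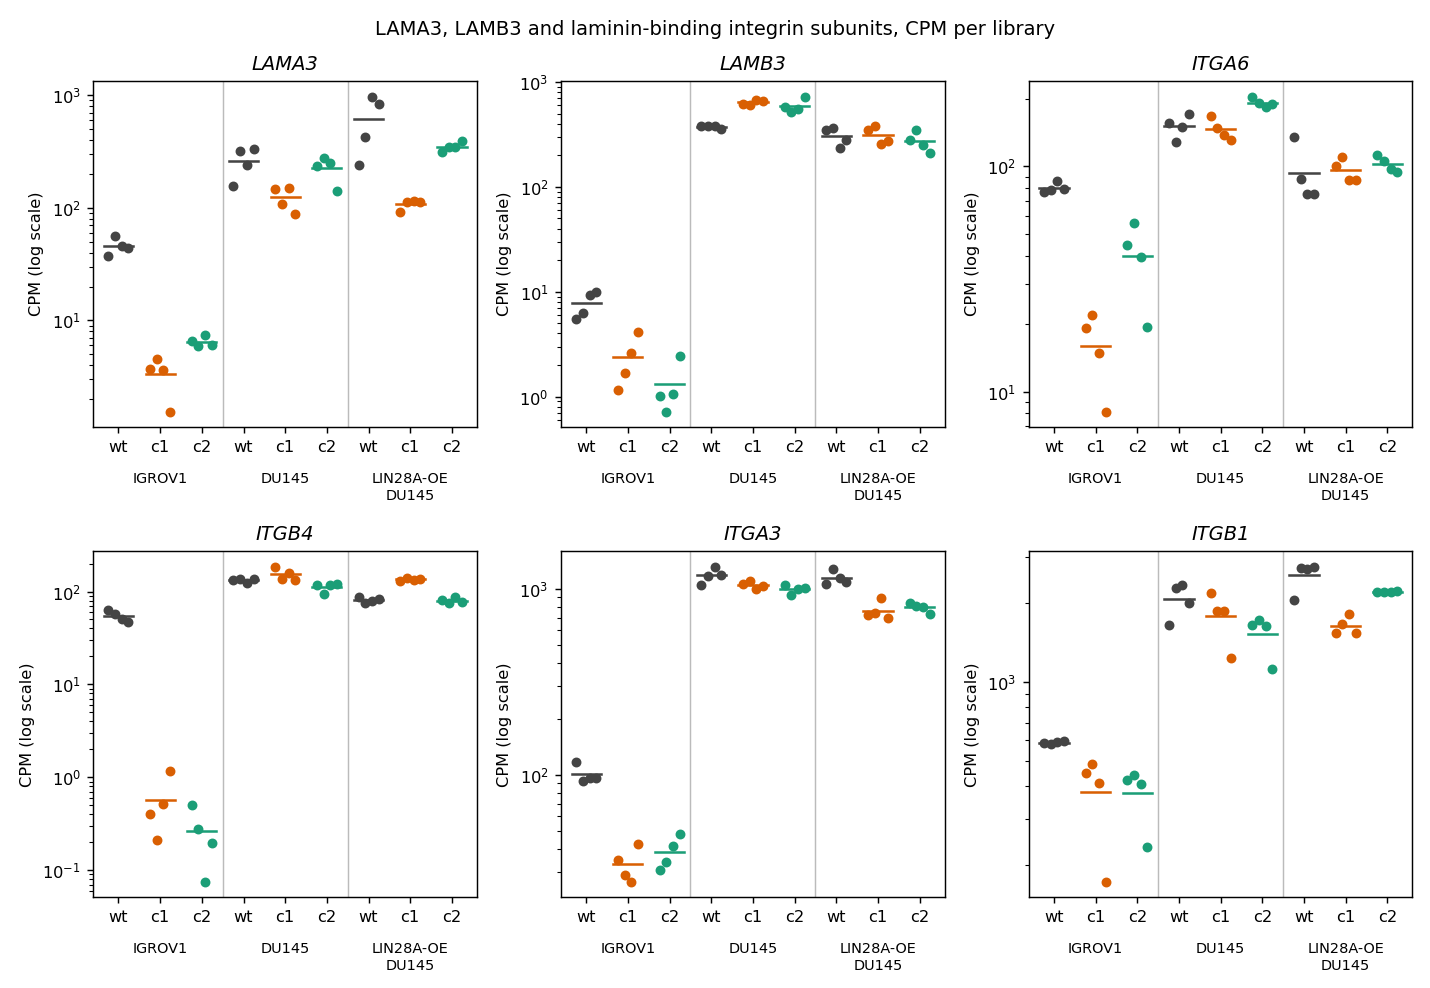
CPM (y axis, log scale) of LAMA3, LAMB3, ITGA6, ITGB4, ITGA3 and ITGB1 in each library; x axis, wild type (wt), clone 1 (c1) and clone 2 (c2) of each line; points are the 4 libraries and lines their means. The IGROV1 clones lie below their wild type in all 6 panels, ITGB4 at no more than 1.16 CPM, while in the DU145 groups ITGB4 stays at 74.8 CPM or more.

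Of the chains of the other laminins, LAMC1 fell in IGROV1 and the rest of laminin-511 did not pass the test. LAMC1 (chr1:183023420-183145592), the gamma chain shared by most laminins, had 2539, 2434, 2442 and 2441 CPM in wild-type IGROV1, 1472, 1704, 1411 and 829 in clone 1 and 1434, 1662, 1416 and 1004 in clone 2. Every mutant library was below every wild-type one, and the log2 fold changes were -0.82 ± 0.14, FDR = 8.89e-06 and -0.87 ± 0.14, FDR = 3.46e-06. LAMA5 had 1360, 1405, 1593 and 1548 CPM in the wild type, 1768, 1562, 1568 and 1470 in clone 1 and 1146, 1148, 1381 and 1298 in clone 2, and neither clone was called (0.17 ± 0.20 and -0.27 ± 0.20). Both clones overlapped the wild type. LAMB1 ranged from 689 to 724 CPM in the wild type, 358 to 751 in clone 1 and 509 to 954 in clone 2, and LAMB2 from 330.2 to 356, 357 to 616 and 369 to 622. Their log2 fold changes lay between -0.17 and 0.47, none called.

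LAMA1 (chr18:6941742-7117797), the alpha chain of laminin-111, rose in both IGROV1 clones. It had 0.725, 1.48, 1.26 and 1.55 CPM in wild-type IGROV1, 4.46, 5.51, 5.78 and 1.68 in clone 1 and 23.9, 27.3, 20.3 and 22.2 in clone 2. The 3 groups did not overlap, and clone 2 was the highest. The log2 fold changes were 1.88 ± 0.36, FDR = 7e-05 in clone 1 and 4.20 ± 0.34, FDR = 3e-12 in clone 2, and clone 2 exceeded clone 1 by 2.31 ± 0.30, FDR = 2.25e-07.

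Among the collagen receptors, ITGA2 fell in both IGROV1 clones and ITGA1 fell in clone 1 and rose in clone 2. ITGA2 had 47.6, 34.3, 32.5 and 33 CPM in the wild type, 7.14, 9.48, 6.19 and 2.46 in clone 1 and 12.5, 12.4, 6.40 and 5.66 in clone 2. Every mutant library was below every wild-type one, and the clones overlapped. ITGA1, which lies 30.1 kb upstream of ITGA2 on chromosome 5 (chr5:52787916-52959209), had 3.52, 3.56, 3.59 and 3.47 CPM in the wild type, 0.800, 1.48, 0.619 and 0.388 in clone 1 and 39.6, 29.7, 21.1 and 6.98 in clone 2. The wild-type value of ITGA1 sat between the clones with no overlap on either side. ITGA2 changed by -2.45 ± 0.28, FDR = 6.48e-09 in clone 1 and -2.01 ± 0.27, FDR = 1.4e-07 in clone 2. ITGA1 changed by -1.90 ± 0.48, FDR = 0.00154 and 2.75 ± 0.37, FDR = 2.17e-07, a difference between clones of 4.65 ± 0.45, FDR = 5.44e-10.

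ITGB5, a partner of ITGAV, had 104, 101, 109 and 112 CPM in wild-type IGROV1, 36.9, 44.7, 40.6 and 36.1 in clone 1 and 55.4, 51, 53.3 and 60.5 in clone 2. It was lower in both clones without overlap (-1.37 ± 0.14, FDR = 8.45e-10 and -0.97 ± 0.14, FDR = 6.49e-07). ITGB8, another ITGAV partner, had 29.7, 38.3, 29.3 and 41.6 CPM in the wild type, 97.2, 107, 97.8 and 25.4 in clone 1 and 30.4, 28.6, 34.9 and 16.9 in clone 2. In 3 of the 4 clone 1 libraries ITGB8 was above every wild-type library, and replicate 4, which stands apart, was below all of them. The rise in clone 1 was 1.28 ± 0.35, FDR = 0.00329 with all libraries and 1.56, FDR = 1.98e-07 without the 6. It lost its call when only the 2 groups were fitted (FDR = 0.0135) and without wild-type replicate 1 or 3 or clone 1 replicate 1, 2 or 3 (log2 fold changes 1.14 to 1.21, FDR = 0.0111 to 0.0137). ITGAV itself had 458, 514, 493 and 511 CPM in the wild type, 507, 610.1, 468 and 173 in clone 1 and 747, 814, 744 and 348 in clone 2, and was called in neither clone (-0.13 ± 0.22, FDR = 0.667 and 0.39 ± 0.22, FDR = 0.162). Replicate 4 was again the lowest of each clone, and without the 6 libraries clone 2 was called higher (0.59, FDR = 1.39e-05).

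LAMC3 (chr9:131009174-131094473), the gamma chain of a less widespread laminin, likewise fell in clone 1 and rose in clone 2. It had 2.43, 2.73, 2.33 and 2.38 CPM in wild-type IGROV1, 1.09, 1.11, 0.929 and 0.259 in clone 1 and 5.80, 6.95, 7.15 and 6.25 in clone 2, with no overlap between any pair. The log2 fold changes were -1.37 ± 0.24, FDR = 1.61e-05 and 1.38 ± 0.19, FDR = 3.15e-07. ITGB2, low in this line at 2.59 to 5.07 CPM in the wild type, had 0.900 to 2.59 in clone 1 and 1.72 to 2.90 in clone 2. Clone 2 overlapped the wild type, and clone 1 reached the lowest wild-type library to within the rounding shown. Its fall in clone 1 (-1.23 ± 0.30, FDR = 0.00115) lost the call when only the 2 groups were fitted and without wild-type replicate 4 or clone 1 replicate 2 (log2 fold changes -1.0 to -0.97, FDR = 0.0103 to 0.014). In clone 2 ITGB2 was not called by edgeR (-0.86 ± 0.27, FDR = 0.0103) but was by DESeq2 (FDR = 0.00642) and without the 6 libraries (-1.11, FDR = 0.000123). ITGAE was called in neither clone (-0.29 ± 0.11, FDR = 0.0402 and -0.06 ± 0.11, FDR = 0.712). Between the IGROV1 clones as a whole, 5 of the 34 members were higher and 3 lower in clone 2 (all genes, 10% and 8.79%). The 5 became 3 when only the clones were fitted, where over all genes 1557 higher became 845.

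Epithelial markers differed between these groups as well, but not all in the same direction. In IGROV1 the 5 markers summed to 1118 to 1242 CPM in the wild type, 710 to 1204 in clone 1 and 324 to 380 in clone 2. EPCAM had a mean of 77.4 CPM in the wild type, 0.245 in clone 1 and 0.127 in clone 2, KRT8 had 195, 2.74 and 1.54, and CDH1 had 4.52, 0.881 and 0.222. KRT18 had means of 226, 292 and 32.8 CPM, so it was higher in clone 1 than in the wild type and lower in clone 2. KRT19 had means of 696, 595 and 308 CPM and stayed above 288 CPM in every IGROV1 library. The summed values of clone 1 overlapped those of the wild type. PAX8 had means of 639.8, 800.4 and 530.2 CPM. The 3 endothelial markers summed to 67.9 to 108 CPM in the wild type, 15 to 31.2 in clone 1 and 52.6 to 96.6 in clone 2. The part of these markers in the change of LAMA3 and LAMB3 was not tested.

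The counts that follow for other adhesion genes stand against 14.5% of all genes higher and 16.6% lower in IGROV1 clone 1, and 14.2% and 15.9% in clone 2. Of the 7 tested hemidesmosome partners and tetraspanins, 0 were higher and 3 lower in IGROV1 clone 1, and 0 higher and 4 lower in clone 2. COL17A1, the transmembrane collagen of hemidesmosomes, changed by -1.53 ± 0.23, FDR = 2.14e-06 and -2.55 ± 0.24, FDR = 1.35e-10, and DST, which encodes the hemidesmosomal plakin, by -1.99 ± 0.33, FDR = 7.44e-06 and -2.02 ± 0.33, FDR = 4.8e-06. Of 15 other integrin ligands, 1 was higher and 9 were lower in clone 1, and 0 and 7 in clone 2. SPP1, or osteopontin, a ligand of ITGAV integrins, had a mean of 3220 CPM in the wild type, 34.4 in clone 1 and 17 in clone 2, and NPNT, or nephronectin, 20.5, 0.185 and 0.0126. Of 30 integrin adaptors and kinases, 1 was higher and 8 lower in clone 1 and 2 and 8 in clone 2, and of 18 other basement membrane genes, 2 and 3, a share near that of all genes, and 1 and 6. FERMT1, or kindlin-1, which binds integrin beta tails, was at 1.02 CPM in the wild type and below 0.06 CPM in every clone library.

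The difference between the lines was tested itself, as the mean effect of the 2 clones in IGROV1 minus that in DU145. Of the 34 members 2 had a higher and 12 a lower effect in IGROV1 (all genes, 11.3% and 12.8%). ITGB4 showed the widest gap, -7.09 ± 0.24, FDR = 5.69e-22. The difference was -2.88 ± 0.33, FDR = 1.31e-08 for LAMB3 and -2.54 ± 0.34, FDR = 4.27e-07 for LAMA3. ITGA2 (-2.24), ITGA6 (-1.73), ITGB5 (-1.57), ITGA3 (-1.20), LAMC1 (-1.03) and ITGAE (-0.81) were lower too, and LAMA1 was higher (3.53 ± 0.39, FDR = 6.34e-09).

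In DU145 clone 1, ITGB2 and ITGA11 had the largest log2 fold changes of the 20 described members. ITGB2 (chr21:44885953-44931989), the leukocyte beta chain, had 69.7, 125, 101 and 92.1 CPM in wild-type DU145, 16.3, 14.1, 14.7 and 13.8 in clone 1 and 129, 148, 128 and 95.2 in clone 2. In LIN28A-OE DU145 it had 79.8, 149.5, 149 and 151 CPM in the wild type, 9.91, 8.53, 13.9 and 13 in clone 1 and 168, 177, 191 and 191 in clone 2. Clone 1 lay far below the other groups in both settings, while clone 2 overlapped the wild type in DU145 and lay above it in LIN28A-OE DU145. ITGB2 fell in clone 1 by 2.72 ± 0.23, FDR = 5.1e-11 in DU145 and by 3.59 ± 0.23, FDR = 7.66e-14 in LIN28A-OE DU145. In clone 2 it was not called (0.25 ± 0.21, FDR = 0.4 and 0.32 ± 0.21, FDR = 0.26), and clone 2 exceeded clone 1 by 2.97 ± 0.23, FDR = 3.04e-12 and 3.91 ± 0.24, FDR = 5.24e-15. An antisense gene, ITGB2-AS1, was counted at means of 6.35, 2.26 and 7.19 CPM in wild-type DU145, clone 1 and clone 2, and since the strand setting of the counting is not given, its reads and those of ITGB2 cannot be told apart. The alpha chains that pair with ITGB2 were low: ITGAL, ITGAM, ITGAX and ITGAD each had means below 2 CPM in every group.

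ITGA11 (chr15:68296532-68432163), the alpha chain of a receptor of fibrillar collagen, was high in the same clone. It had 0.921, 1.14, 1.29 and 1.89 CPM in wild-type DU145, 23.6, 18.6, 15.4 and 15.2 in clone 1 and 1.18, 1.38, 1.03 and 0.967 in clone 2. In LIN28A-OE DU145 it had 3.21, 4.42, 8.15 and 6.79 CPM in the wild type, 15.3, 17.1, 26 and 12.5 in clone 1 and 2.94, 3.06, 2.48 and 3.23 in clone 2. Clone 1 did not overlap any other group of its setting. The rise was 3.80 ± 0.30, FDR = 4.22e-11 in DU145 and 1.62 ± 0.24, FDR = 4.03e-06 in LIN28A-OE DU145. Clone 2 was lower than the wild type in LIN28A-OE DU145 (-1.06 ± 0.26, FDR = 0.00255), a call lost when only the compared groups were fitted (FDR = 0.0173) or without wild-type replicate 3 (log2 fold change -0.82, FDR = 0.0231). ITGA1 and ITGA2 were not called in either DU145 clone by edgeR. In LIN28A-OE DU145, ITGA1 had 18, 22.4, 46.3 and 34.9 CPM in clone 1 against 7.31, 12.2, 15.3 and 13.2 in the wild type. ITGA2 had 58.9, 68.7, 120.4 and 66 CPM in clone 1 against 30.9, 41.4, 42.5 and 51.3 in the wild type. Neither gene's groups overlapped, and both were called higher in clone 1 (1.30 ± 0.34, FDR = 0.00301 and 0.87 ± 0.25, FDR = 0.00617), and both calls were lost when only the compared groups were fitted. That of ITGA1 was lost without wild-type replicate 1 or clone 1 replicate 3 (log2 fold changes 1.05 to 1.12, FDR = 0.0126 to 0.0175), and that of ITGA2 also without wild-type replicate 2 or 3 (log2 fold changes 0.62 to 0.89, FDR = 0.0145 to 0.0469).

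LAMA3, LAMA1 and LAMC3 fell in clone 1 of both DU145 and LIN28A-OE DU145. LAMA3 had 157.5, 320.4, 242 and 331 CPM in wild-type DU145, 148, 108, 149 and 88.2 in clone 1 and 235, 276, 248 and 141 in clone 2. In LIN28A-OE DU145 it had 242, 424, 967 and 828 CPM in the wild type, 91.5, 112, 116 and 112 in clone 1 and 310.2, 345, 349 and 396 in clone 2. The wild-type libraries spread widely, and all of them lay above clone 1 in both settings. LAMA3 changed by -1.09 ± 0.27, FDR = 0.00203 in DU145 clone 1, a call lost without its replicate 4 (log2 fold change -0.97, FDR = 0.0117), and by -2.56 ± 0.28, FDR = 8.44e-09 in LIN28A-OE clone 1. In clone 2 it was -0.34 ± 0.27, FDR = 0.356 without and -0.95 ± 0.27, FDR = 0.00643 with LIN28A. The last call was lost when only the compared groups were fitted (FDR = 0.0734) and without wild-type replicate 3 or 4 or clone 2 replicate 1, 2 or 3 (log2 fold changes -0.95 to -0.64, FDR = 0.0141 to 0.0671). The difference between the effects with and without LIN28A was not tested.

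LAMA1 had 42.1, 116, 94 and 71.8 CPM in wild-type DU145, 45.1, 45, 36 and 44.5 in clone 1 and 85.4, 96, 84.6 and 71.6 in clone 2. With LIN28A it had 128, 221, 418 and 400.4 in the wild type, 49.4, 55.3, 79.5 and 58.7 in clone 1 and 201, 192, 192 and 209 in clone 2. Wild-type replicate 1 was the lowest library of its group in both settings. Clone 1 was lower by 0.92 ± 0.27 (FDR = 0.00709) in DU145, a call lost without wild-type replicate 2 or 3 or any 1 library of the clone (log2 fold changes -0.96 to -0.70, FDR = 0.0133 to 0.0495), and by 2.31 ± 0.27 (FDR = 3.08e-08) in LIN28A-OE DU145. LAMC3 was at 5.93, 7.79, 8.09 and 5.77 CPM in wild-type DU145, 3.32, 1.97, 3.02 and 3.75 in clone 1 and 5.13, 7.88, 7.48 and 6.09 in clone 2. With LIN28A it was at 8.52, 14.6, 13.6 and 13.5 CPM in the wild type, 3.87, 3.53, 4.40 and 3.84 in clone 1 and 15, 16.3, 17.7 and 16.6 in clone 2. Clone 1 was below every other library of its setting and fell by 1.22 ± 0.20, FDR = 1.89e-05 and by 1.73 ± 0.18, FDR = 4.15e-09. LAMA5 was called in LIN28A-OE clone 1, with 256, 261, 320.5 and 293 CPM against 290.2, 512, 850.1 and 739 in the wild type (-1.13 ± 0.21, FDR = 5.14e-05). That call was lost when only the compared groups were fitted (FDR = 0.0121).

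**Figure D4:**
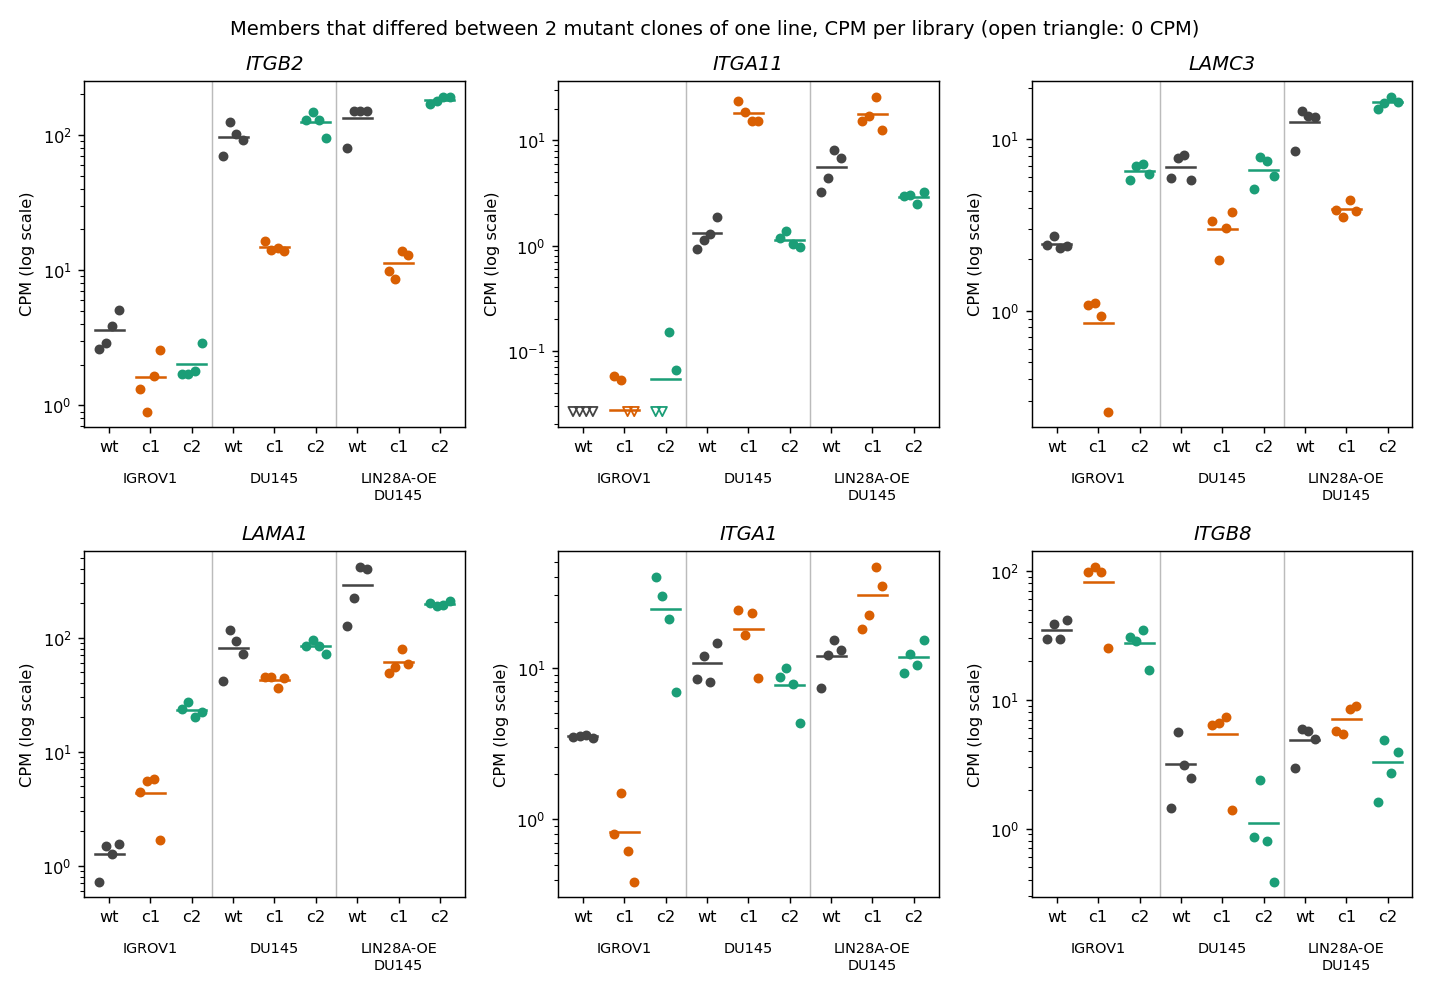
CPM (y axis, log scale) of ITGB2, ITGA11, LAMC3, LAMA1, ITGA1 and ITGB8 in each library; x axis, wild type (wt), clone 1 (c1) and clone 2 (c2) of each line; points are libraries, lines are means and open triangles are libraries at 0 CPM. ITGB2 is between 8.53 and 16.3 CPM in clone 1 of both DU145 settings and at 69.7 CPM or more in the other groups of DU145.

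LAMB3 had 378, 379, 378 and 358 CPM in wild-type DU145, 622, 605, 671 and 667 in clone 1 and 582, 523, 559 and 726 in clone 2. Both clones lay above the wild type without overlap, but clone 1 passed narrowly (0.78 ± 0.23, FDR = 0.00959), a call lost on leaving out any 1 of the 8 libraries (log2 fold changes 0.74 to 0.81, FDR = 0.0154 to 0.0267), and clone 2 did not (0.56 ± 0.23, FDR = 0.0623). In clone 1 the call was also lost with RLE scaling (FDR = 0.0109) and with no filter (FDR = 0.0105), and clone 2 was called when only the compared groups were fitted (0.58, FDR = 0.00405). In LIN28A-OE DU145 LAMB3 spanned 212 to 381 CPM over the 12 libraries, with no call.

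LAMB1 rose in DU145 clone 1, from 35.5, 46.4, 44.8 and 38.8 CPM to 81, 73.7, 75.2 and 64.3 (0.83 ± 0.18, FDR = 0.000459), and had 61.5, 53.6, 60.4 and 50.5 in clone 2 (0.33 ± 0.18, FDR = 0.159). Every library of both clones was above the wild-type ones. By edgeR over all libraries, LAMB2 and ITGAV were called in none of the 6 comparisons of a clone with its wild type. Without the 6 libraries LAMB2 was called lower in LIN28A-OE clone 1 (-0.97, FDR = 1.14e-06) and clone 2 (-0.55, FDR = 0.00176). ITGAV was then called higher in DU145 clone 1 (0.70, FDR = 9.51e-06) and IGROV1 clone 2 (0.59, FDR = 1.39e-05) and lower in LIN28A-OE clone 2 (-0.42, FDR = 0.00135), the latter also when only the compared groups were fitted (-0.39, FDR = 0.00342). LAMC1 spanned 312 to 621 CPM over the 24 DU145 libraries without a call against wild type.

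ITGAE, the alpha chain that with ITGB7 binds E-cadherin, rose in clone 2 of both settings. It had 39.4, 31, 31 and 32.5 CPM in wild-type DU145, 40.7, 44.9, 41.3 and 42.1 in clone 1 and 68.8, 67.5, 68.4 and 73.8 in clone 2. With LIN28A it had 30.9, 22.7, 28.1 and 26.4 CPM in the wild type, 39.2, 29.9, 33.7 and 38.5 in clone 1 and 62.2, 56.6, 66.7 and 69.5 in clone 2. Clone 2 was above all other libraries of its setting, by 0.94 ± 0.11, FDR = 4.83e-08 and 1.1 ± 0.11, FDR = 1.47e-09 against wild type. Its partner ITGB7 stayed below 3 CPM on average in every group. ITGB5 had 52.6, 51.1, 49.4 and 69.7 CPM in wild-type DU145, 65, 71.8, 51 and 70.9 in clone 1 and 87.2, 92.7, 73.4 and 107 in clone 2, where it rose by 0.58 ± 0.14, FDR = 0.00158. The call was lost without wild-type replicate 2 or 3 or clone 2 replicate 4 (log2 fold changes 0.45 to 0.52, FDR = 0.0129 to 0.0217). ITGA5, the alpha chain of the fibronectin receptor, was also called higher in clone 2, by 0.55 ± 0.10, FDR = 3.61e-05 in DU145 and 0.42 ± 0.10, FDR = 0.00104 in LIN28A-OE DU145.

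Of ITGA3, ITGA6, ITGB4 and ITGB1, edgeR over all libraries called none in a DU145 clone without LIN28A. In clone 2, ITGB1 was called lower with the replicate block (-0.57, FDR = 0.00792) and without the 6 libraries (-0.53, FDR = 3.3e-06), and ITGA3 without the 6 libraries (-0.43, FDR = 0.00411). ITGA3 had 1045 to 1310 CPM in the wild type, 1002 to 1096 in clone 1 and 926 to 1049 in clone 2. With LIN28A it had 1056, 1284, 1145 and 1088 CPM in the wild type, 724, 739, 890.2 and 694 in clone 1 and 841, 805, 800.1 and 727 in clone 2. Both clones were below the wild type without overlap (-0.64 ± 0.14, FDR = 0.000478 and -0.66 ± 0.14, FDR = 0.000362). ITGA6 was called in no clone of either setting and spanned 128 to 204 CPM in DU145 and 75.1 to 135 with LIN28A. ITGB4 rose in LIN28A-OE clone 1, with 131, 138, 133 and 137 CPM against 87.7, 75.9, 79.3 and 82.6 (0.68 ± 0.15, FDR = 0.000492), and had 81.6, 74.8, 86.7 and 76.3 in clone 2 (-0.16 ± 0.15, FDR = 0.454). ITGB1 was lower in LIN28A-OE clone 1, at 1541, 1660, 1819 and 1531 CPM against 2051, 2720, 2694 and 2748 (-0.69 ± 0.19, FDR = 0.00438), a call lost without wild-type replicate 2, 3 or 4 or clone 1 replicate 1, 2 or 4 (log2 fold changes -0.69 to -0.65, FDR = 0.0108 to 0.0154). ITGB8 was at 0.387 to 7.29 CPM in DU145. It was not called in clone 2 by edgeR (-1.72 ± 0.56, FDR = 0.018) but was called lower by DESeq2 (-1.69, FDR = 0.00159), without the 6 libraries (-1.70, FDR = 0.00223) and without wild-type replicate 1 (FDR = 0.00926) or clone 2 replicate 2 (FDR = 0.00474).

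Set directly against each other, DU145 clone 2 had 9 members higher and 6 lower than clone 1 (all genes, 15.4% and 15.7%). In LIN28A-OE DU145 the counts were 11 and 5 (all genes, 20% and 17.6%), and the 5 became 9 with the replicate number as a block and 11 without the 6 libraries. Over all genes, 2745 lower became 2955 and 3942 in these 2 fits. Both clones are mutants, so these values compare clones and not genotypes. ITGB8 was lower in clone 2 of DU145 by 2.52 ± 0.52, FDR = 0.000197. Of 18 other basement membrane genes, 8 were higher and 5 lower in DU145 clone 1 against wild type (all genes, 10.4% and 11.3%) and 6 and 3 in clone 2 (all genes, 9.99% and 10.5%). COL4A5, a type IV collagen chain, had means of 9.19, 56.2 and 0.0242 CPM in wild-type DU145, clone 1 and clone 2, and NID2, or nidogen-2, which links laminin to collagen IV, 3.48, 68.4 and 13.4. Against the same shares, of 30 integrin adaptors and kinases 2 were higher and 3 lower in clone 1, no more than over all genes, and 0 and 11 in clone 2. In the same groups the 5 epithelial markers summed to 1442 to 2522, 1757 to 2347 and 2718 to 3573 CPM. EPCAM had means of 54.2, 11.5 and 58.8 CPM, and KRT8 784, 1080 and 1494, and their part was not tested.

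In wild-type cells, LIN28A-OE DU145 had 7 members higher and 2 lower than DU145 (all genes, 6.67% and 2.55%). All 7 lost their call when only these 2 groups were fitted, and 1 of the 2 did. Over all genes that fit called 132 higher and 69 lower, against 1037 and 396 with all libraries. Without the 6 libraries the member counts were 11 and 3 (all genes, 1991 and 1680). Each group includes a replicate 1 that stands apart. The 2 groups also differed in passage, in lentiviral transduction and in the puromycin selection that the paper describes for transduced cells. No group carried an empty vector, so LIN28A cannot be told apart from these here. The 7 were 6 laminin chains and ITGA11. LAMA1 had 42.1 to 116 CPM without and 128 to 418 with LIN28A, without overlap (1.87 ± 0.27, FDR = 6.65e-06, and 1.83, FDR = 0.0233 when only the 2 groups were fitted). LAMA3 had 157.5 to 331 CPM without and 242 to 967 with LIN28A, with overlap (1.25 ± 0.27, FDR = 0.0012, and 1.20, FDR = 0.0934), and lost its call without LIN28A-OE replicate 3 or DU145 replicate 1 (log2 fold changes 0.94 to 1.07, FDR = 0.0105 to 0.0171). LAMB1 had 35.5, 46.4, 44.8 and 38.8 CPM without and 53.9, 80.6, 94.6 and 99 with LIN28A, without overlap (1.00 ± 0.18, FDR = 0.000128, and 0.96, FDR = 0.0129).

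LAMA5 had 221, 467, 358 and 284 CPM in wild-type DU145 and 290.2, 512, 850.1 and 739 with LIN28A (0.86 ± 0.20, FDR = 0.00301). LAMB2 had 110.4, 235, 189.5 and 163 and 150.5, 389.8, 442 and 373 CPM (0.98 ± 0.24, FDR = 0.00413). For both, replicate 1 was the lowest library on each side and the groups overlapped. LAMA5 lost its call without LIN28A-OE replicate 3 or 4 or DU145 replicate 1 or 4 (log2 fold changes 0.65 to 0.76, FDR = 0.0171 to 0.0364), and LAMB2 without LIN28A-OE replicate 2, 3 or 4 or DU145 replicate 1, 3 or 4 (log2 fold changes 0.82 to 0.98, FDR = 0.0115 to 0.0303). LAMC3 (0.88 ± 0.18, FDR = 0.000731) and ITGA11 (2.11 ± 0.31, FDR = 1.49e-05) rose without overlap. ITGB4 was lower, 87.7, 75.9, 79.3 and 82.6 CPM against 134, 136, 124 and 136 (-0.69 ± 0.15, FDR = 0.00124), a call kept when only the 2 groups were fitted.

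The wild-type lines themselves differed in most members: 18 of the 34 were higher and 11 lower in DU145 than in IGROV1 (all genes, 31.3% and 28.7%). The line cannot be told apart from its medium or tissue. Per kilobase of the canonical GENCODE v44 transcript, LAMC1 had the highest level of the members in IGROV1, at 311 ± 6.36 CPM per kb (SD, n = 4), then ITGB1, LAMA5 at 129 ± 9.77 and LAMB1 at 125 ± 2.81. LAMA5 and LAMB1 did not differ beyond their spread. In DU145 the order was ITGB1 at 555 ± 85.6, ITGA3 at 241 ± 22.1, LAMB3 at 93 ± 2.47 and LAMC1 at 53.6 ± 5.44 CPM per kb, each apart from the next by more than their SDs. Among the laminins LAMC1, LAMA5 and LAMB1 led in IGROV1, and in DU145 LAMB3 stood above LAMA3 (24.7 ± 7.56); LAMA3 has a shorter transcript that the length used does not cover.

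Of the described members with reads in both lines, the widest differences between the lines were in LAMA1, higher in DU145 by 5.92 ± 0.35, FDR = 1.8e-16, LAMB3 by 5.51 ± 0.29, FDR = 5.59e-18, ITGB2 by 4.66 ± 0.25, FDR = 1.97e-17 and ITGA3 by 3.48 ± 0.15, FDR = 6.33e-20. Of the members not described one by one, LAMB4 was near 0 in wild-type DU145 (mean 0.0256 CPM) and at a mean of 1.35 CPM in IGROV1. LAMB1 was lower in DU145 by 4.17 ± 0.20, FDR = 3.95e-19, ITGB8 by 3.53 ± 0.42, FDR = 4.92e-09, LAMC1 by 2.61 ± 0.14, FDR = 2.79e-17, LAMA5 by 2.23 ± 0.21, FDR = 3.47e-11 and ITGAV by 2.03 ± 0.23, FDR = 1.65e-09. In each of these described members the 4 libraries of one line lay clear of the 4 of the other. ITGA11 had 0 reads in the 4 wild-type IGROV1 libraries; against a floor of 3 reads over the whole group, or 0.0425 CPM, its mean of 1.31 CPM in wild-type DU145 was at least 30.8-fold higher, a bound that covers counting error only.

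**Figure D5:**
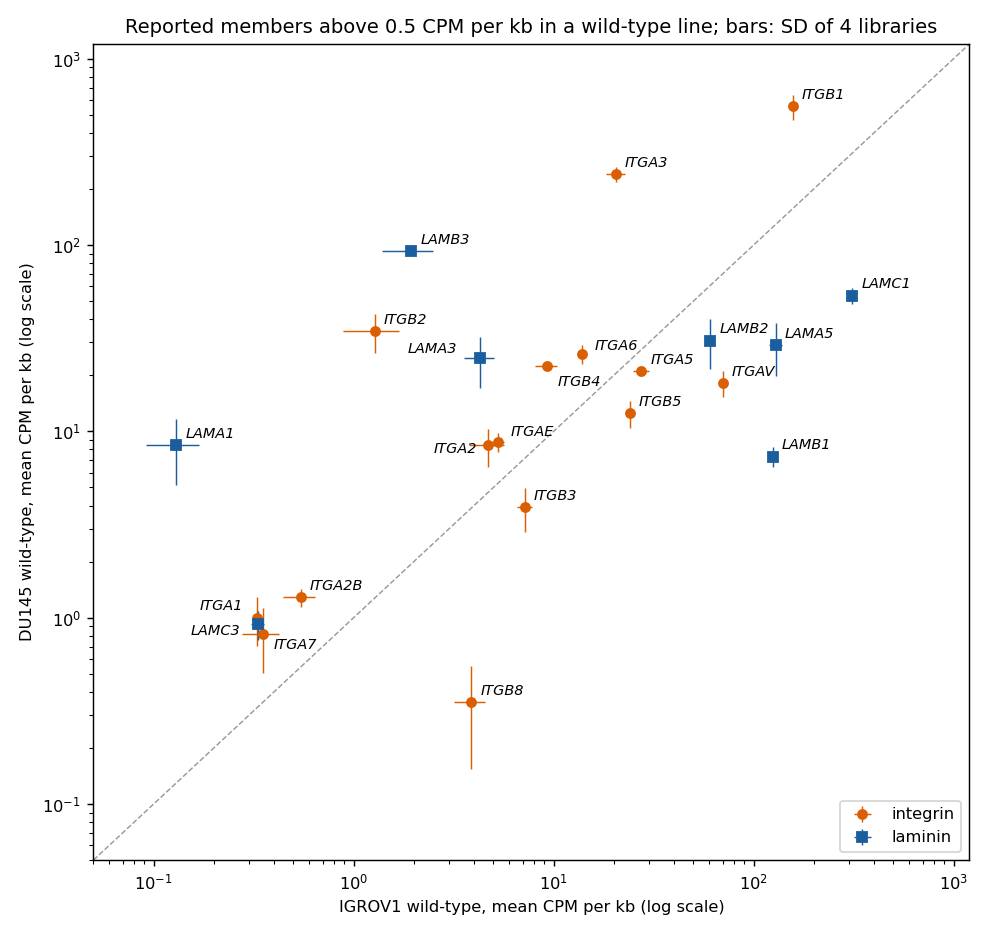
Mean CPM per kilobase of canonical transcript in wild-type IGROV1 (x axis) and wild-type DU145 (y axis), both log scales, for the reported members above 0.5 CPM per kb in either line and above 0 in both; circles are integrins, squares laminins, bars the SD of 4 libraries, and the dashed line marks equal levels. LAMB3, ITGB2 and LAMA1 lie far above the line, LAMB1 and ITGB8 far below it.

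Of the 17 members not described one by one, ITGA5 (group means 80.1 to 142 CPM) and ITGB3 (23.4 to 77.0 CPM) were above 20 CPM in every group, and the rest had group means of at most 9.90 CPM. ITGB3, another partner of ITGAV, was higher in IGROV1 clone 1 (0.91 ± 0.20, FDR = 0.000338), IGROV1 clone 2 (0.73 ± 0.20, FDR = 0.0029) and DU145 clone 1 (0.74 ± 0.20, FDR = 0.00532). ITGAL, the alpha chain of the lymphocyte integrin LFA-1, had a mean of 1.85 CPM in IGROV1 clone 1 against 0.0666 in the wild type, where the leukocyte marker PTPRC was near 0. ITGA9, an α9β1 chain, was at 2.19 and 1.90 CPM in the IGROV1 clones against 0.627 in the wild type. ITGA8, ITGAD and ITGB6 had means below 1 CPM in every group.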

How the data were processed

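Poly(A)-selected libraries were trimmed with Trimmomatic 0.39, cleared of rRNA reads with sortmeRNA, aligned to hg38 with HISAT2 2.1.0 and counted per gene with HTSeq by the authors, who deposited 1 file of read counts per library. The annotation and strand setting used for counting are not given in the sources used here. The closing rows of each file, reads assigned to no gene, were 21.9 to 30.1% and were left out. Counts were fitted with edgeR 4.0.16 (R 4.3.3) in 1 quasi-likelihood model of 36 libraries in 9 groups, with TMM scaling and the filterByExpr filter. Values are CPM over the gene counts of each library (TMM factors, used in the fits alone, were 0.84 to 1.12), log2 fold changes ± SE, and Benjamini-Hochberg FDRs over 15556 genes, called below 0.01. The method was tested on simulated data. Members were named by the rule that opens the results. They, the gene lists and the markers were chosen with earlier results of these data known. Alternatives were RLE scaling, DESeq2 1.42.0, no filter, only the compared groups, a replicate block, other thresholds and leaving out each library. Leaving out the 6 libraries that stand apart was chosen after seeing the data. No 2 libraries held identical counts. Same-numbered libraries were checked for pairing by the correlation of their deviations. Every pair exceeded 0.1 in LIN28A-OE DU145 clone 2 against wild type (0.164 to 0.506), IGROV1 clone 2 against clone 1 (0.102 to 0.755) and DU145 clone 2 against clone 1 (0.115 to 0.529). Libraries with different numbers reached 0.232, 0.51 and 0.201 in these comparisons, above the lowest same-numbered value of each. The check therefore does not show that the numbers pair the libraries. A gene of the set, which stays in the counts of members, and some markers are not reported here by name. Small RNA files were not used here.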

Additional observations from a re-analysis of the deposited data

Results flagged for a closer look

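The effect of the mutant clones differed between IGROV1 and DU145 in 10 of the 20 described members, by an interaction term in edgeR (IGROV1 minus DU145, log2). The 20 were chosen in part by this same test, so their share is not a measure of how often it passes. Of all 34 members tested, 2 had a higher and 12 a lower effect in IGROV1 (all genes, 11.3% and 12.8%). The differences were -7.09 for ITGB4 (FDR = 5.69e-22), -2.88 for LAMB3 (FDR = 1.31e-08), -2.54 for LAMA3 (FDR = 4.27e-07), -2.24 for ITGA2 (FDR = 8.05e-07), -1.73 for ITGA6 (FDR = 1.05e-06), -1.57 for ITGB5 (FDR = 5.46e-09), -1.20 for ITGA3 (FDR = 1.14e-06), -1.03 for LAMC1 (FDR = 7.88e-06), -0.81 for ITGAE (FDR = 1.69e-05) and 3.53 for LAMA1 (FDR = 6.34e-09).

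In 17 of the 180 sets of 4 libraries (20 members in 9 groups) 1 library lay far from the other 3, where chance gives about 1 in 20. Wild-type IGROV1 replicate 1 was high in ITGA2, at 47.6 CPM against 32.5 to 34.3 in the others, in ITGA3, at 117 against 92.8 to 96.2, and in LAMC1, at 2539 against 2434 to 2442. IGROV1 clone 1 replicate 4 had 25.4 CPM of ITGB8 against 97.2 to 107, and clone 2 replicate 4 had 348 CPM of ITGAV against 744 to 814 and 2.90 of ITGB2 against 1.72 to 1.81. Wild-type DU145 replicate 4 had 69.7 CPM of ITGB5 against 49.4 to 52.6 and 358 of LAMB3 against 378 to 379. DU145 clone 1 replicate 4 had 1.39 CPM of ITGB8 against 6.37 to 7.29, and replicate 3 had 36 of LAMA1 against 44.5 to 45.1. DU145 clone 2 replicate 4 had 1123 CPM of ITGB1 against 1629 to 1726, and replicate 2 had 94.9 of ITGB4 against 118 to 120.0. Wild-type LIN28A-OE DU145 replicate 1 had 158.5 CPM of ITGAV against 169 in the others, 2051 of ITGB1 against 2694 to 2748, 79.8 of ITGB2 against 149 to 151 and 95.9 of ITGB5 against 65.1 to 69.8. LIN28A-OE clone 1 replicate 3 had 120.4 CPM of ITGA2 against 58.9 to 68.7. Of the 17, 9 were in the 6 libraries that stand apart, and the part of library quality was not tested.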

How the results depend on the processing

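No called change of a described member reversed direction under any alternative, and no uncalled value became a call in the opposite direction. Directions of values called in neither fit were not compared. Calls of described members were lost in 16 values when only the compared groups were fitted, where 10 were gained. With RLE scaling 1 was lost and 1 gained, and with no filter 1 was lost and 3 gained (both losses LAMB3 in DU145 clone 1). DESeq2 lost 0 and gained 10, and the replicate block lost 0 and gained 8. Over all fits that left out 1 library, 80 values lost their call, 24 gained one and 2136 stayed the same. Leaving out the 6 libraries that stand apart lost 0 and gained 32, but they were picked for deviating from their replicates. Low counts limit ITGA11, LAMB3 in IGROV1 and ITGB8 in DU145. In IGROV1 they also limit LAMC3 and ITGB2, and ITGA1 and LAMA1 in the wild type and clone 1.

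Where the replicate number was used as a block, no call of a described member was lost, and none changed in the 3 comparisons whose numbers pair the libraries. In other comparisons the libraries share only a number. There the block added calls of ITGB1 in IGROV1 clone 1 (FDR = 0.00275) and DU145 clone 2 (FDR = 0.00792), ITGB2 in IGROV1 clone 2 (FDR = 0.00725), ITGA6 between the wild types with and without LIN28A (FDR = 0.00415) and 4 members between the LIN28A-OE clones. The block moved the members lower in DU145 clone 2 from 0 to 1, those lower in LIN28A-OE clone 2 against clone 1 from 5 to 9, and those with a higher effect in IGROV1 from 2 to 1, as no filter did (1). Over all genes it moved these counts from 1638 to 1812, from 2745 to 2955 and from 1764 to 1885, and no filter gave 1659 for the last.

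With a log2 fold change of at least 1 required, the members higher were 3 instead of 6 in DU145 clone 1, 4 instead of 7 in DU145 clone 2, 4 instead of 7 in LIN28A-OE wild type against DU145 and 7 instead of 11 in LIN28A-OE clone 2 against clone 1. The members lower were 5 instead of 8 in LIN28A-OE clone 1, 1 instead of 3 in LIN28A-OE clone 2 and 1 instead of 2 in LIN28A-OE wild type. With an FDR of 0.05, the members lower were 3 in DU145 clone 2, 5 in LIN28A-OE clone 2 and 12 between the LIN28A-OE clones. DESeq2 gave 2 lower in DU145 clone 2 and 8 lower between the LIN28A-OE clones. Without the 6 libraries there were 3 lower in DU145 clone 2, 5 higher and 10 lower in LIN28A-OE clone 2, 11 higher in LIN28A-OE wild type and 11 lower between the LIN28A-OE clones. With only the compared groups there were 3 higher in LIN28A-OE clone 1, 0 higher and 1 lower in LIN28A-OE wild type, 3 higher between the IGROV1 clones and 10 lower between the LIN28A-OE clones. Calls over all genes moved too. Without the 6 libraries, genes lower went from 1638 to 2267 in DU145 clone 2 and from 2745 to 3942 between the LIN28A-OE clones. Genes higher and lower in LIN28A-OE clone 2 went from 1635 and 1569 to 2386 and 2504. With only the compared groups, those in LIN28A-OE wild type went from 1037 and 396 to 132 and 69. The cause of these shifts was not tested. The share of higher among all calls between the wild types with and without LIN28A was 72.4% with TMM, 68% with RLE and 65.4% with DESeq2.

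Leaving out 1 library at a time, the members higher and lower ranged as follows. IGROV1 clone 1 had 4 to 6 and 13 to 14, and clone 2 had 4 to 7 and 10 to 11. DU145 clone 1 had 4 to 5 and 2 to 4, and clone 2 had 5 to 7 and 0 to 1. LIN28A-OE clone 1 had 4 to 8 and 7 to 8, and clone 2 had 3 in every fit and 1 to 5. LIN28A-OE wild type against DU145 had 4 to 9 and 1 to 3, and DU145 against IGROV1 had 15 to 18 and 11 in every fit. Clone 2 against clone 1 had 4 to 7 and 3 to 5 in IGROV1, 6 to 9 and 3 to 6 in DU145, and 8 to 10 and 5 to 7 in LIN28A-OE DU145. The effect in IGROV1 against that in DU145 had 1 to 3 and 10 to 12.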
